A study of Rattus norvegicus with 4 samples.

Results

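Neurons derived from olfactory bulb neural stem cells were compared with those stem cells on 2 rat microarrays, of 4 in the series. The comparison took the arrays labelled OB NSC and OB Neu, every non-control probe whether or not it has a gene symbol, and the log2 signal after each array's 75th percentile was subtracted. It held 30970 of 40758 probes and 7022 of 8927 named genes, those that the scanner software marked as well above background for stem cells, neurons or both. The cells came from Fisher 344 rats: the stem cells were olfactory bulb-derived and the neurons were derived from them in culture. The labels give no treatment, time, age or purification. RNA of 3 independent experiments was pooled for an array, which therefore gives no spread between cultures. The other 2 arrays held hippocampal stem cells (HPC NSC) and neurons derived from them (HPC neu), in a series whose title concerns insulin biosynthesis in neuronal progenitors.

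The olfactory bulb is the first relay of the sense of smell and one of the few brain regions that receives new neurons in the adult. Stem and progenitor cells give rise there mainly to inhibitory interneurons, the granule and periglomerular cells, which use GABA and in part dopamine and which can carry calretinin or calbindin. A cell that leaves the dividing state normally shuts down replication and mitosis genes, passes through a neuroblast stage marked by doublecortin, and then builds synapses. Cultures of neural stem cells also yield astrocytes and oligodendrocytes, and bulb tissue holds ensheathing glia, vessels and meninges.

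With 1 array a side no difference could be tested, no value has a replicate check, and the number of arrays limits the precision. A difference is given as neurons minus stem cells on the log2 scale, and was called at 1 log2 unit, that is 2-fold. Where a probe was not well above background on 1 array, the difference is a bound. Its level there was raised to the lowest level well above background on that array if it lay under it, and kept otherwise. The 2 bulb arrays lay on different slides, each shared with the hippocampal array of the same cell state, so slide and cell state cannot be told apart. RNA of a mixed culture was measured, so that more cells of a type and more RNA per cell cannot be told apart. Probes well above background made up 63.8% on the stem cell array and 74.0% on the neuron array, and no spot was saturated. Over 183 probes printed 5 to 10 times, the log2 difference varied between spots with a median SD of 0.08, and the scanner's own error for a difference had a median of 0.20. Both describe spots, not cultures.

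After scaling to the 75th percentile, large differences ran mostly towards the neurons. Of 7022 genes, 1887 were higher in neurons by 2-fold or more (26.9%) and 1402 lower (20.0%), with a median difference of 0.08. Counts of list genes below are to be read beside these shares. Over all 30970 probes, 6557 were higher (21.2%) and 6407 lower (20.7%). This balance depends on the scaling. Scaling to the array's spike-in control probes gave 1125 higher and 3320 lower genes, and 3344 higher and 15678 lower probes. Of the genes past 2-fold, 57.4% were higher at the 75th percentile, 36.97% after scaling to the array median and 25.3% after spike-in scaling. At the 75th percentile the balance also shifted with size. At 16-fold or more, 550 genes were higher and 78 lower, of which 332 and 19 were bounds. At 64-fold or more, 268 genes were higher and 14 lower, of which 166 and 2 were bounds. At 1024-fold, 58 probes were higher, 44 of them bounds, and 0 lower. Most of these large higher differences thus rest on a stem cell level not well above background. Among genes measured on both arrays the middle of the distribution was narrow, with quartiles of -0.91 and 0.73 around a median of -0.14. Detection was also uneven: 1131 genes were well above background in neurons only and 119 in stem cells only, against 5772 on both arrays and 1905 on neither. The median bound of the neuron-only genes was 1.84.

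**Figure D1:**
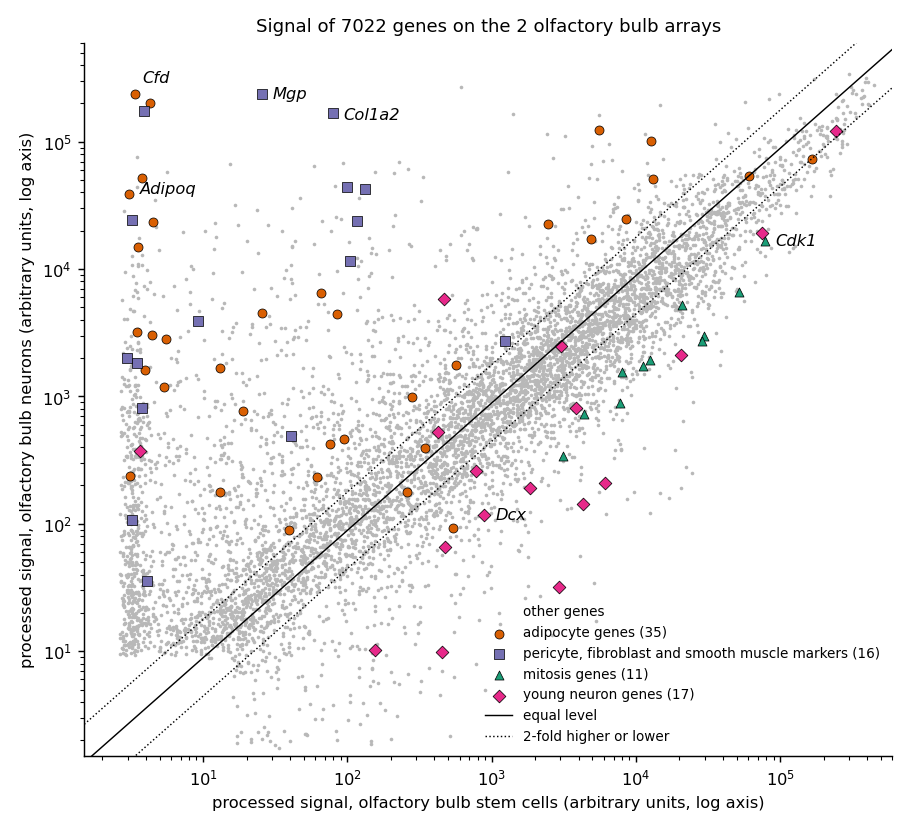
Processed signal of the 7022 genes compared, with the stem cell array on the horizontal axis and the neuron array on the vertical axis (arbitrary units, both log axes), the line of equal level after scaling and the 2-fold limits. Above the upper 2-fold limit lie 30 of 35 adipocyte genes and all 16 stromal markers. Several of these have stem cell signals under 13.1, the lowest signal well above background there. The adipocyte gene Cav1, all 11 mitosis genes and 12 of 17 young neuron genes lie below the lower 2-fold limit.

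The labelled neurons were set against genes of young neurons first. Of 17 such genes compared, 12 were lower in neurons by 2-fold or more and 2 were higher, with a median of -2.69. Elavl3, which encodes a neuronal RNA-binding protein, gave a signal of 2908 in stem cells and 31.8 in neurons, a difference of -6.35. Dcx, the microtubule protein doublecortin of migrating neuroblasts, gave 891 in stem cells and 118 in neurons (-2.74). Tubb3, the neuronal tubulin, gave 1832 in stem cells and 192 in neurons (-3.08). All 3 were thus well above background on both arrays and brighter in the stem cells. Crmp1 (456 and 9.81, -5.37) and Elavl4 (4308 and 143, -4.74) had the same direction; such pairs of signals give stem cells first. Gap43, a growth cone protein, gave 20692 in stem cells and 2126 in neurons (-3.11). The neurofilament-like protein gene Ina gave 6139 in stem cells and 208 in neurons (-4.71). The exceptions were Stmn2, a microtubule regulator of growing axons, with 3.63 in stem cells, not well above background, and 373 in neurons (at least 5.01), and Cd24, a surface protein of neuroblasts and ependymal cells, with 469 in stem cells and 5792 in neurons (3.8). Basp1 (-0.12) and Ncam1 (0.48) stayed inside the 2-fold limits.

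Genes of mature neurons split. The median of 17 compared was -0.28, with 7 lower (41.2%) and 4 higher (23.5%), against 20.0% lower and 26.9% higher over all genes. Mapt, the axonal protein tau, gave 24495 in stem cells and 251 in neurons (-6.44), and Uchl1, an abundant neuronal hydrolase, gave 38432 in stem cells and 1776 in neurons (-4.26). Map2, a dendritic microtubule protein, gave 409 in stem cells and 142 in neurons (-1.35). In the other direction Thy1 gave 3.24 in stem cells, not well above background, and 107 in neurons (at least 3.2). Thy1 is also listed among the markers of pericytes, fibroblasts and smooth muscle. Scg5, a secretory granule protein, gave 17.2 in stem cells, not well above background, and 164 in neurons (at least 3.42). The neurofilament subunits ranged from -0.2 for Nefh through 0.85 for Nefm to at least 1.42 for Nefl. The neuronal nuclear marker Rbfox3 had no named probe.

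Among 20 synaptic vesicle and exocytosis genes, 8 were lower (40%) and 4 higher (20%), against 20.0% and 26.9% over all genes. The median was -0.41. The lower set held the vesicle proteins Syp, with 106 in stem cells and 13.97 in neurons (-2.75), and Syt1, with 211 in stem cells and 5.70 in neurons, not well above background (-4.46 or lower), as well as Rab3c (1775 and 32.5, -5.6). The higher set was led by Rab3b, with 3.64 in stem cells, not well above background, and 469.6 in neurons (at least 5.34), and Snap25, a membrane fusion protein, with 68.3 in stem cells and 514 in neurons (3.08). Within the small Rab3 family, which attaches vesicles to release sites, the members therefore differed in direction, with Rab3a at -2.61. Syn1 (-0.53) and Bsn (-0.07) stayed inside the 2-fold limits. Spike-in scaling in place of the 75th percentile lowers the differences measured on both arrays by 1.03, which puts the medians of the mature neuron and synaptic lists at -1.31 and -1.44. The labels do not say how the spike-in RNA was added.

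Of 10 genes of the olfactory bulb interneuron lineage, 3 were higher (30%), 3 were lower (30%) and 4 lay between, with a median of -0.37. Over all genes, 26.9% were higher and 20.0% lower. The lower ones of the lineage were far lower. Dlx5, a homeobox factor of forebrain interneurons, gave 5140.1 in stem cells and 34.4 in neurons (-7.05). Calb2, which encodes calretinin, gave 18641 in stem cells and 379 in neurons (-5.45), and Isl1 gave 453 in stem cells and 6.93 in neurons, not well above background (-5.56 or lower). Calb1, which encodes calbindin, went the other way with 3.02 in stem cells, not well above background, and 85.5 in neurons (at least 2.88), as did Nrp1, a guidance receptor, with 3.73 in stem cells, not well above background, and 345 in neurons (at least 4.89). The transmitter genes were dim on both arrays: Gad1, which makes GABA, gave 17.2 in stem cells and 3.69 in neurons, not well above background, and Th, the dopamine-synthesis enzyme, gave 24.8 in stem cells and 26.4 in neurons (0.26). Slc32a1, the vesicular GABA transporter, gave 300.1 in stem cells and 254 in neurons (-0.07). Of 4 glutamatergic lineage genes compared, 3 were higher, among them Reln (425 and 3947, 3.38) and the photoreceptor-type cadherin Cdhr1 (18.9 and 924, 5.78), and Neurod1 was lower (-1.57 or lower).

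Of 17 voltage-gated channel genes, 3 were higher (17.6%) and 4 lower (23.5%), with a median of 0.19, against 26.9% higher and 20.0% lower over all genes. Kcnh2, a potassium channel, gave 289.8 in stem cells and 22.6 in neurons (-3.51), and Cacna1b, a presynaptic calcium channel, gave 1890.2 in stem cells and 268 in neurons (-2.65). The pore-forming sodium channel genes were at 0.83 for Scn2a and -0.83 for Scn8a, and Scn1a was not well above background on either array. Among 18 glutamate and GABA receptor genes, 6 were higher (33.3%) and 2 lower (11.1%). The lower ones were the AMPA receptor subunits Gria2 (350.3 and 77.00, -2.01) and Gria4 (3313 and 406, -2.86). The higher ones had neuron signals of at most 117, led by Gabrb1 (3.50 in stem cells, not well above background, and 83.8 in neurons, at least 2.85).

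Marker genes of other cell types were higher on the array labelled neurons, and their part in the neuronal results was not tested. Every one of 16 stromal markers (pericytes, fibroblasts and smooth muscle) was higher, and their summed signal was 1861 in stem cells and 739277 in neurons. Of 16 astrocyte markers 14 were higher, with sums of 29548 and 292325. Of 12 microglia and macrophage markers 10 were higher, with sums of 957 and 7869. Of 7 endothelial markers 5 were higher, with sums of 261 and 6010.3. The defining markers Pecam1 of endothelium and Itgam of microglia were not well above background on either array.

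**Figure D2:**
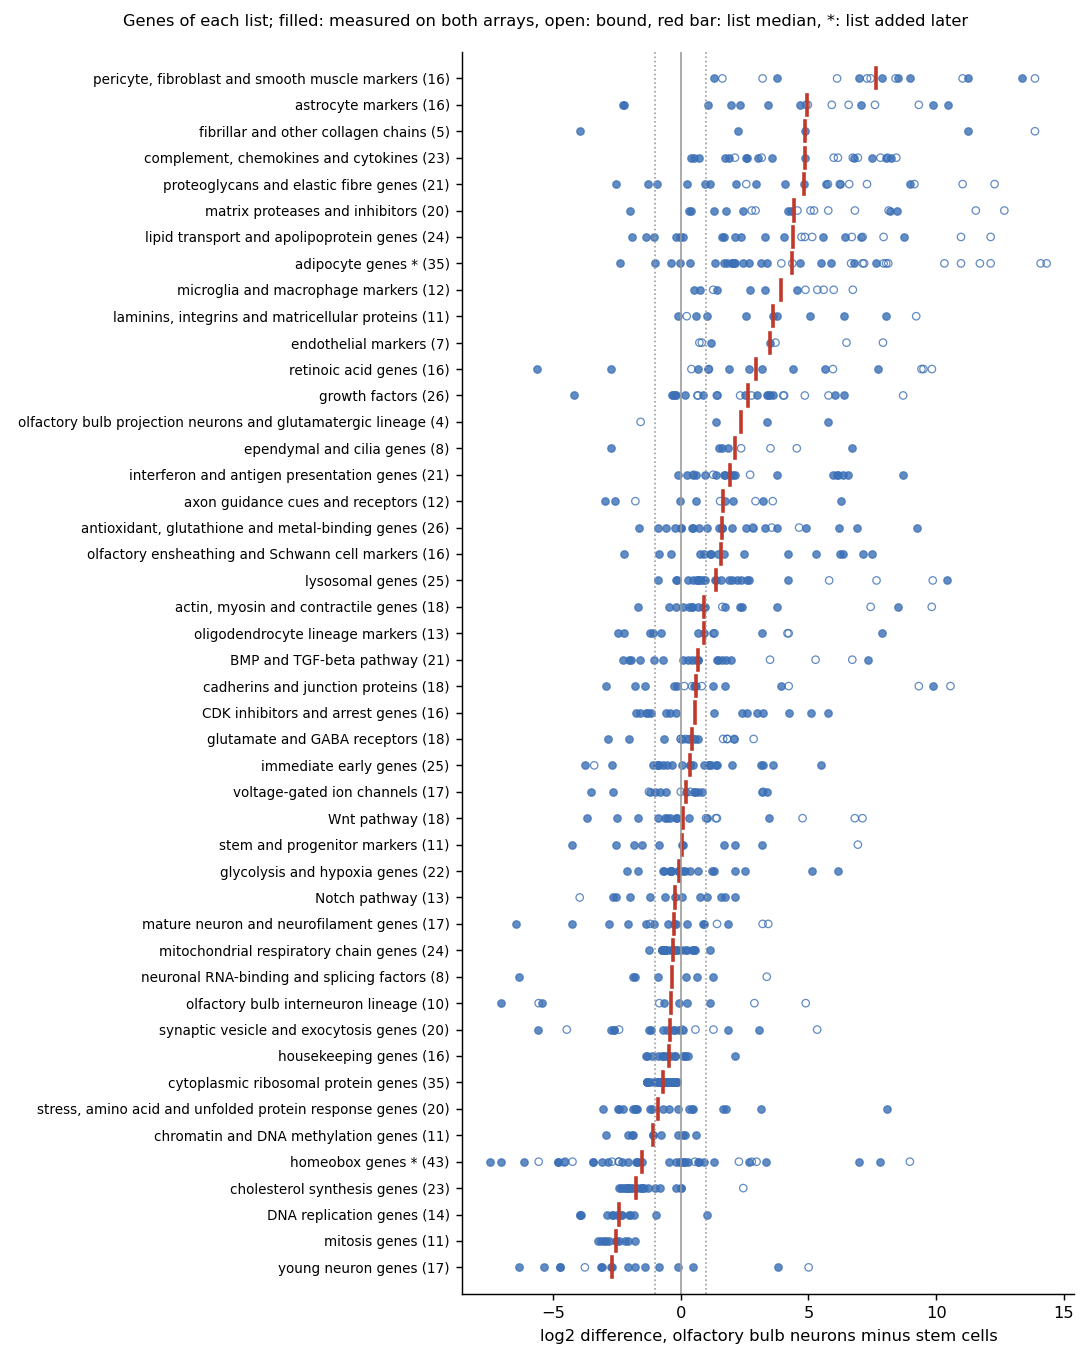
Log2 difference, neurons minus stem cells, of every compared gene in 46 lists, sorted by the list median (red bar), with the number compared in brackets, filled points for genes measured on both arrays, open points for bounds, dotted lines at the 2-fold limits and asterisks on 2 lists added after the values were seen. List medians run from -2.69 for young neuron genes to 7.65 for pericyte, fibroblast and smooth muscle markers.

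The stem cell label was checked in the same way. Of 11 stem and progenitor markers, 4 were lower in neurons (36.4%) and 4 higher (36.4%), with a median of 0.06. Over all genes, 20.0% were lower and 26.9% higher. The Notch target Hes5 gave 237 in stem cells and 36.4 in neurons (-2.53). Nes and Vim, the intermediate filaments of neural progenitors, remained bright in neurons: Nes gave 41854 in stem cells and 20547 in neurons (-0.86) and Vim gave 108964 in stem cells and 101606 in neurons (0.07). Prom1 (2.74 in stem cells, not well above background, and 1418 in neurons, at least 6.93), Egfr (25.2 and 202, 3.17) and Fabp7 (17402 and 49447, 1.68) were brighter in neurons. Sox2 had no named probe.

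Homeobox genes, which encode transcription factors that assign position and cell identity, were described as a family after their values were seen. Of 55 on the array 43 were compared, of which 22 were lower in neurons (51.2%) and 9 higher (20.9%). Their median was -1.54, and over all genes 20.0% were lower and 26.9% higher. Cdx2, known from the intestine and the early embryo, gave 2629 in stem cells and 13.3 in neurons (-7.46). Irx2 gave 2176 in stem cells and 27.2 in neurons (-6.15), and Nkx6-1, a factor of ventral neural tube and pancreas, gave 995 in stem cells and 31.4 in neurons (-4.81). Pitx1 gave signals of 7959 and 657 (-3.43). Vax2, of the ventral eye and forebrain, gave 3558 and 133 (-4.58), and Hoxb7, of the trunk, gave 823 and 68.2 (-3.42). Factors known from several body regions were thus well above background in the stem cells. The 9 higher genes included Alx1 (15.97 and 3197, 7.82) and Prrx1 (104 and 11593, 6.98), which are factors of mesenchyme. Msx1 gave 2652 and 15134 (2.68), and Phox2a, a factor of autonomic neurons, gave 6.58 and 90.7 (at least 2.97). The family median was -0.65 after normexp background correction, -0.54 with no filter on dim probes and -0.996 over genes measured on both arrays.

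The genes lowest in neurons were taken by size alone. B3gat2, a glucuronyltransferase that builds a carbohydrate on neural adhesion molecules, led the measured genes with 5263 in stem cells and 17.3 in neurons (-8.08). Cntn1, an axonal adhesion molecule, gave 12455 in stem cells and 121 in neurons (-6.52). Padi2, a protein-modifying enzyme of oligodendrocytes, gave 20415 in stem cells and 192 in neurons (-6.56), and Bcas1, a marker of young oligodendrocytes, gave 22417 in stem cells and 281 in neurons (-6.15). Nup210, a nuclear pore protein, gave 16894 in stem cells and 159 in neurons (-6.56). Apold1 (14725 and 173, -6.24), the synaptic kinase-like gene Camkv (4119 and 56.1, -6.03), the cytoskeletal adducin Add2 (1141 and 16.3, -5.96) and the endocytic receptor Lrp2 (1696 and 26.4, -5.84) completed this set together with Cyp26b1, which degrades retinoic acid. Among genes that left the detectable range, Ppp1r1b, a signalling protein of dopamine-responsive neurons, gave 553 in stem cells and 6.30 in neurons, not well above background (-5.85 or lower). Omg, the oligodendrocyte-myelin glycoprotein, gave 435 in stem cells and 4.51 in neurons, not well above background (-5.5 or lower). Drd4, a dopamine receptor, gave 323 in stem cells and 5.83 in neurons, not well above background (-5.08 or lower), and Calcr, the calcitonin receptor, gave 510.5 in stem cells and 2.17 in neurons, not well above background (-5.73 or lower). Cyp2c7 (903 and 4.95, -6.56 or lower) and Pnlip (784 and 7.99, -6.35 or lower) are known from liver and pancreas.

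Cell division genes were lower without exception in the mitosis list. All 11 mitosis genes were lower in neurons by 2-fold or more, with a median of -2.53, and 12 of 14 replication genes were lower, with a median of -2.43. Birc5, which keeps the chromosomal passenger complex on centromeres, gave 28811 in stem cells and 2723 in neurons (-3.23). Ccnb1, the mitotic cyclin, gave 29677 in stem cells and 2996 in neurons (-3.14), and its kinase Cdk1 gave 78241 in stem cells and 16666 in neurons (-2.06). The mitosis genes remained well above background in neurons, where the dimmest, Aurkb, gave 341. Mcm7, a subunit of the replicative helicase, gave 24465 in stem cells and 1412 in neurons (-3.94). Prim1, the primase, gave 39116 in stem cells and 2259 in neurons (-3.94), and Pcna, the polymerase clamp, gave 18693 in stem cells and 2572 in neurons (-2.69). The replication list had 1 gene in the other direction, Tyms, with 258 in stem cells and 471 in neurons (1.03), which is near 0 on the spike-in scale. Of 11 chromatin genes, 6 were lower and 0 higher, among them the maintenance methyltransferase Dnmt1 (4371 and 515, -2.91) and the histone variant gene H2az1 (225706 and 55119, -1.86), while Dnmt3a (-0.11) and Hdac1 (0.16) stayed near 0.

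Promoters of mitotic and replication genes often share short elements tied to the cell cycle, and 3 promoters of lower genes are shown with them. The sequences are from RefSeq, build GRCr8, read 5′ to 3′ on the gene's strand from 250 bases before to 50 bases after the start. In Ccnb2 (chr8:79981609-79981908, minus strand) and Cdc20 (chr5:137255750-137256049, minus strand) capitals mark the cell cycle genes homology region (CHR), TTTGAA, and the CCAAT box, CCAAT. In Mcm7 (chr12:22163129-22163428, minus strand) capitals mark an E2F motif, TTTCGCGC.
Ccnb2: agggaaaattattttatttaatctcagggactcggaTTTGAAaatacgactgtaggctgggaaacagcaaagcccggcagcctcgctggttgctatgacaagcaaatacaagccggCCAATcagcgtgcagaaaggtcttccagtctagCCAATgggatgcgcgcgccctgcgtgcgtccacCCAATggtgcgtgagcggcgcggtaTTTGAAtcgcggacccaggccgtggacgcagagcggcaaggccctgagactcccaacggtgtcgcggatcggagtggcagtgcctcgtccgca
Cdc20: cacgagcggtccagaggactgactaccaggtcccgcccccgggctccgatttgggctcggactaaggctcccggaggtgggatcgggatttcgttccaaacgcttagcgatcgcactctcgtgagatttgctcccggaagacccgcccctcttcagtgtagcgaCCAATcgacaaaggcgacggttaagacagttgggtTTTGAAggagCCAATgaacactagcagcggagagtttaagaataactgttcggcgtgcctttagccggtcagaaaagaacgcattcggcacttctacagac
Mcm7: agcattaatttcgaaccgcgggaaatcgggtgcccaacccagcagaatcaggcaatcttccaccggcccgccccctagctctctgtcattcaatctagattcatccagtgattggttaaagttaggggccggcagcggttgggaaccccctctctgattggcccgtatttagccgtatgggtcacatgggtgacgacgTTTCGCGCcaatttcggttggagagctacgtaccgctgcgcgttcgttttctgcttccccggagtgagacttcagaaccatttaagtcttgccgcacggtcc

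Letters were searched on both strands of 27457 promoters, which held 5693 of the 7022 compared genes. TTTGAA was in 18.1% of all promoters and in 6 of 9 mitosis genes with a promoter entry. CCAAT was in 37.7% of all promoters and in 6 of those 9. Over all higher and all lower genes, TTTGAA was in 12.3% and 12.4% of promoters, and CCAAT in 38.2% and 41.1%. In Ccnb2 the CHR letters began 43 and 214 bases before the start, with CCAAT letters at 68, 101 and 134 bases before it. The difference of Ccnb2 was -2.19 and that of Cdc20 -1.81. TTTCGCGC was in 0.342% of all promoters and in 3 of 10 lower replication genes, and a second E2F form, TTTGGCGC, in 0.521% and in 0 of these 10. Tyms, the replication gene that was higher, held the second form and not the first. Such matches describe letters and show no binding.

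Cholesterol synthesis, which supplies membrane sterol to growing cells, was lower as a pathway. Of 23 genes 17 were lower and 1 was higher, with a median of -1.73. The lower differences were alike in size, from Idi1, with 86334 in stem cells and 14539 in neurons (-2.4), to Fdft1, with 3279.8 in stem cells and 1196 in neurons (-1.28). Hmgcs1 gave 164347 in stem cells and 37689 in neurons (-1.95), and the regulator Srebf2 gave 928 in stem cells and 302 in neurons (-1.45). The late enzyme Ebp (-0.01) and the feedback regulator Insig1 (-0.01) did not differ by 2-fold. CCAAT letters were in 14 of 17 promoters of the list, against 37.7% of all promoters. They were in 9 of the 12 lower members with a promoter entry, and also in Ebp and Insig1. The sterol element letters TCACNCCAC were in 0 of 17, against 1.13% of all promoters.

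Of 20 amino acid synthesis, stress and unfolded protein response genes 10 were lower (50%) and 4 higher (20%), against 20.0% and 26.9% over all genes. The median of the list was -0.91, inside the 2-fold limit. Psat1 (557 and 59.7, -3.05) and Phgdh (233282 and 60785, -1.77) make serine, Asns (38903 and 6523, -2.41) makes asparagine, and Atf4 (101494 and 27471, -1.71) is their common regulator. The small heat shock gene Hspb1 stood apart from them, with 29.7 in stem cells and 7121 in neurons (8.08), and Cryab gave 8832 in stem cells and 26511 in neurons (1.76).

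Matrix and secreted proteins of connective tissue were among the genes with the largest differences, beside genes of other kinds such as the gap junction gene Gja1 (9.86). Mgp, an inhibitor of calcification, gave 25.7 in stem cells and 238770.0 in neurons (13.35). The collagen chain Col1a2 gave 79.1 in stem cells and 168857 in neurons (11.23) and Col3a1 gave 3.87 in stem cells, not well above background, and 173082 in neurons (at least 13.87). Plod1 (16.6 and 32173, 11.09) hydroxylates collagen lysines, Pcolce (58.4 and 64861, 10.29) promotes procollagen processing, Loxl1 (5.61 and 57902, at least 12.29) cross-links elastic fibres and Ctsk (23.6 and 29122, 10.44) digests collagen. Col5a1 gave 795 in stem cells and 20753 in neurons (4.88), while the cartilage collagen Col2a1 was lower, with 859.6 in stem cells and 49.9 in neurons (-3.94).

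The collagen-binding proteoglycans followed the fibrillar collagens. Of 21 proteoglycan and elastic fibre genes, 16 were higher and 2 lower, with a median of 4.82. Dcn gave 3.23 in stem cells, not well above background, and 24330.1 in neurons (at least 11.03), Lum gave 3.46 in stem cells, not well above background, and 1816 in neurons (at least 7.29), and Fmod gave 34.7 in stem cells and 2299.8 in neurons (6.22). The 2 lower genes, Bcan (5944 and 915, -2.53) and Ncan (517 and 191, -1.27), encode the proteoglycans of brain matrix, and the 2 probes of Bcan differed, at -5.73 and -2.53. Of 20 matrix proteases and inhibitors, 17 were higher, led by the membrane protease Mmp14 (3.46 in stem cells, not well above background, and 75409 in neurons, at least 12.67), Mmp2 (133 and 41955, 8.48) and the protease inhibitor Serping1 (4.64 in stem cells, not well above background, and 34792 in neurons, at least 11.55). Mmp16 was the only lower one (8515 and 1903, -1.99). Timp2 was bright on both arrays (112589 and 125314, 0.33). Of 11 laminins, integrins and matricellular genes, 8 were higher, among them Spp1 (3.37 in stem cells, not well above background, and 6899.6 in neurons, at least 9.22) and Sparc (5535 and 163730.0, 5.06), and Itgb3 was not (-0.13).

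**Figure D3:**
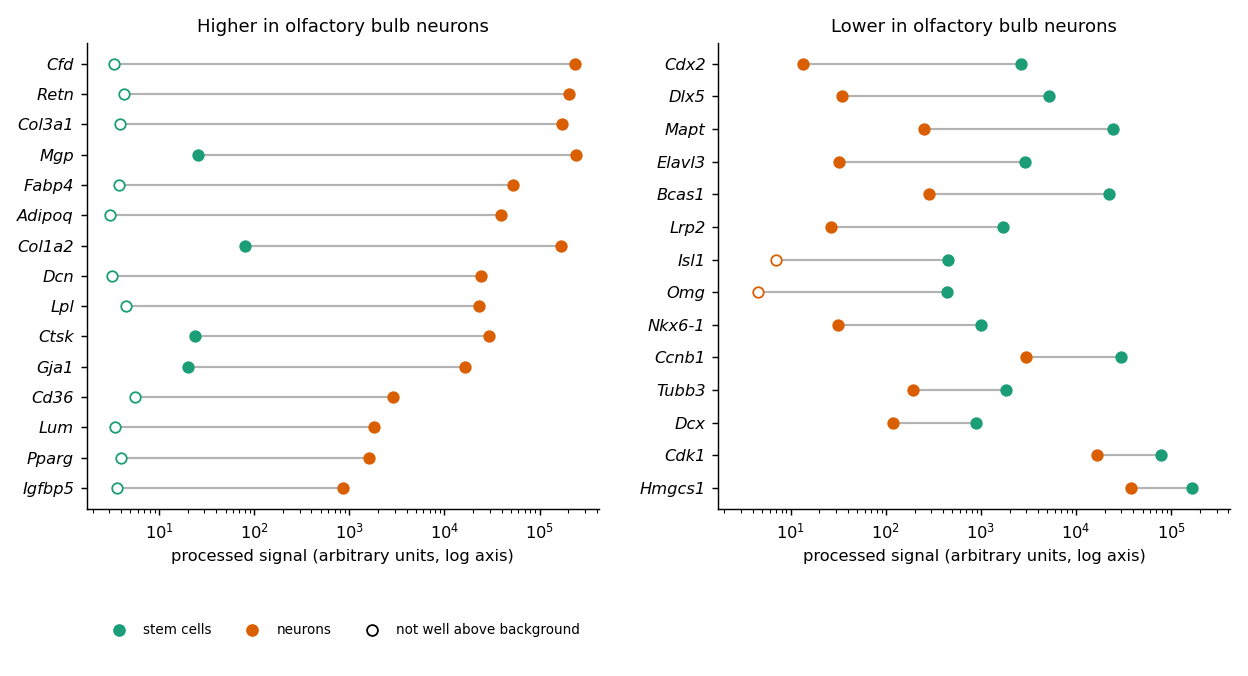
Processed signal of genes chosen after their values were seen, on the stem cell array and the neuron array (arbitrary units, log axis), with genes higher in neurons on the left and lower on the right, sorted by difference; open points were not well above background. Cfd spans 3.36 to 237571 and Cdx2 spans 2629 to 13.3.

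Genes of fat cells were among the largest differences of the comparison. This group was noticed in the values and its list of 41 textbook genes written afterwards, so its counts are a description. Of 35 compared, 30 were higher in neurons (85.7%) and 1 was lower, with a median of 4.37, and the summed signal was 276353 in stem cells and 1071530.0 in neurons. Cfd, the serine protease adipsin secreted by fat cells, gave 3.36 in stem cells, not well above background, and 237571 in neurons (at least 14.32), the largest bound of all named genes. Retn, the hormone resistin, gave 4.28 in stem cells, not well above background, and 201972 in neurons (at least 14.09). Adipoq, the hormone adiponectin, gave 3.05 in stem cells, not well above background, and 38841 in neurons (at least 11.71), and Fabp4, the fatty acid carrier of fat cells, gave 3.77 in stem cells, not well above background, and 52060.5 in neurons (at least 12.13). None of these 4 was well above background in stem cells.

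The transcription factors and enzymes of fat storage had the same direction. Pparg, the regulator of fat cell formation, gave 3.94 in stem cells, not well above background, and 1613 in neurons (at least 7.12), and Cebpa gave 75.2 in stem cells and 422 in neurons (2.66). Lpl, which frees fatty acids from lipoproteins, gave 4.52 in stem cells, not well above background, and 23276 in neurons (at least 10.97). Cd36, a fatty acid transporter, gave 5.53 in stem cells, not well above background, and 2848 in neurons (at least 7.94), and Slc2a4, the insulin-responsive glucose transporter, gave 13.1 in stem cells, not well above background, and 1680.1 in neurons (at least 7.18). Cidec, a lipid droplet protein, gave 3.49 in stem cells, not well above background, and 3237 in neurons (at least 8.12), and Car3 gave 3.53 in stem cells, not well above background, and 14836 in neurons (at least 10.32). The triglyceride enzyme Dgat2 gave 2448 in stem cells and 22518 in neurons (3.37), the lipolysis switch G0s2 gave 5548 in stem cells and 124644 in neurons (4.66), and the lipase Lipe gave 279 in stem cells and 994 in neurons (2.0).

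Other fat cell genes differed less or were not seen. The fatty acid synthesis genes Fasn (60937 and 53397, -0.02), Acaca (257 and 177, -0.37) and Acly (165556 and 73904, -0.99) did not differ by 2-fold. Cav1 was lower, with 542 in stem cells and 93.3 in neurons (-2.37). Lep, the hormone leptin, and Ucp1, the brown fat uncoupler, were not well above background on either array, and Plin1 had no named probe. In hippocampal cells, 20 of 35 list genes were higher and 3 lower, with a median of 1.48, where 21.8% of all 6657 genes compared were higher and 26.9% lower. There Cfd was at at least 11.04, Adipoq at at least 8.89, Car3 at at least 6.71 and Slc2a4 at at least 3.72. The difference between the sources was not tested, and both comparisons lie across the same 2 slides.

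Astrocyte markers were nearly all higher, with a median of 4.94 over 16 genes. Gja1, the main gap junction protein of astrocytes, gave 20.00 in stem cells and 16493 in neurons (9.86). Aqp4, the water channel of astrocyte endfeet, gave 3.62 in stem cells, not well above background, and 2254 in neurons (at least 7.6), and Gfap gave 3.99 in stem cells, not well above background, and 365 in neurons (at least 4.97). Apoe gave 1408 in stem cells and 165611 in neurons (7.05). The 2 lower members were Aldoc (20323 and 3816, -2.24) and Fgfr3 (314 and 59.1, -2.24). The connexins Gjb2 (3.59 in stem cells, not well above background, and 17485 in neurons, at least 10.56) and Gjb6 (6.30 in stem cells, not well above background, and 7412 in neurons, at least 9.32), which lie next to each other in the genome, were both far higher.

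Oligodendrocyte lineage genes split by stage. Of 13, 6 were higher (46.2%) and 4 lower (30.8%), against 26.9% and 20.0% over all genes, and the median was 0.89. The lineage factors Olig1, with 78714 in stem cells and 12621 in neurons (-2.47), and Sox10, with 72308 in stem cells and 13606 in neurons (-2.24), were lower yet remained bright. Mbp, a major myelin protein, gave 211 in stem cells and 80.8 in neurons (-1.21). Mag (13.7 in stem cells, not well above background, and 220.2 in neurons, at least 4.18) and Cldn11 (9.21 in stem cells, not well above background, and 217 in neurons, at least 4.23), also of myelin, were higher. The proteoglycan Cspg4, shared by oligodendrocyte precursors and pericytes, gave 116 in stem cells and 24043 in neurons (7.87).

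Genes of ensheathing glia and Schwann cells, the glia of olfactory and peripheral nerves, were higher in 11 of 16 and lower in 1, with a median of 1.58 that is 0.54 on the spike-in scale. Npy, a peptide of ensheathing glia and of neurons, gave 332 in stem cells and 52558 in neurons (7.48). L1cam, an adhesion molecule, gave 29.3 in stem cells and 3696 in neurons (7.15), and Ngfr, the low-affinity neurotrophin receptor, gave 194 in stem cells and 14216 in neurons (6.37). Gfra3, a receptor of artemin, gave 42.2 in stem cells and 2849.6 in neurons (6.25). In hippocampal cells these 4 were at 1.62, 0.23, 0.88 and 0.54, a difference that was not tested. Sox10 was the lower member, and Mia (-0.4) stayed inside the 2-fold limits. Of 8 ependymal and cilia genes 7 were higher, with Tppp3 at 147 and 13494 (6.69) and the ciliary regulator Foxj1 at 442 and 1420.0 (1.86), while the dynein gene Dnai2 was lower (4253 and 567, -2.74).

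Interferon and antigen presentation genes were higher in 15 of 21 and lower in 0, with a median of 1.92 that is 0.88 on the spike-in scale. Ifitm2, an antiviral membrane protein, gave 156 in stem cells and 58160.0 in neurons (8.71). Bst2, which tethers virions, gave 157 in stem cells and 13203 in neurons (6.56). Irf7, a factor that amplifies the interferon response, gave 73.7 in stem cells and 4626 in neurons (6.14), and Oas1a, an RNA sensor with near-identical copies that the probe may also bind, gave 53.1 in stem cells and 3899.6 in neurons (6.37). The list was uneven: B2m was at 2.13, while the immunoproteasome genes Psmb8 (0.47), Psmb9 (0.24) and Psmb10 (0.59) and the classical target Ifit2 (-0.1) did not differ by 2-fold.

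The interferon-stimulated response element (ISRE) is a short sequence through which interferon switches on many of its target genes. Promoters of 3 leading members of the list are shown with its letters in capitals. These are GAAA, any 2 bases and GAAA again, on either strand, and a match shows no binding. They cover Oas1a (chr12:41330216-41330515, plus strand), Bst2 (chr16:18254918-18255217, minus strand) and Irf7 (chr1:205799974-205800273, minus strand) in the same window and build. Where matches overlap, the capitals run together.
Oas1a: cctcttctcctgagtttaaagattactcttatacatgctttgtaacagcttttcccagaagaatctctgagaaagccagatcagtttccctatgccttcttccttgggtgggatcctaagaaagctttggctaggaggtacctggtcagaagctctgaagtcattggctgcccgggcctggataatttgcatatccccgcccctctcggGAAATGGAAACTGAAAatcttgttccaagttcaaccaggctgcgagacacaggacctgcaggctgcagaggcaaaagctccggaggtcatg
Bst2: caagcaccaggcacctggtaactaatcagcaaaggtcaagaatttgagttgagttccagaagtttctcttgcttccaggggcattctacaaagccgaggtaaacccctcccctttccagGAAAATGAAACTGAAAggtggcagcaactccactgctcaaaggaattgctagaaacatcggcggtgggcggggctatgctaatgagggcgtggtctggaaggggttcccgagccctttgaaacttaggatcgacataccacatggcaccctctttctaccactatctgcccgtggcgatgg
Irf7: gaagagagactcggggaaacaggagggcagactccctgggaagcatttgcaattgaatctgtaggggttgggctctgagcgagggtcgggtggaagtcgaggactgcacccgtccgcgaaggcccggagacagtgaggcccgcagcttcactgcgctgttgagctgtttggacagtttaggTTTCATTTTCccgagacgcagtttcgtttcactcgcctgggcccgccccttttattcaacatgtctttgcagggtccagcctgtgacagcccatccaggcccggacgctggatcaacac

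These letters were in 12 of 17 interferon list promoters, 9 of the 12 higher members included, against 3.77% of all promoters. They were in 5.25% of the promoters of all higher genes and in 2.70% of those of lower genes. Oas1a held matches that began 35 and 41 bases before the start, and Bst2 at 125 and 131 bases. In Irf7 the match lay on the opposite strand and began 69 bases before the start.

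**Figure D4:**
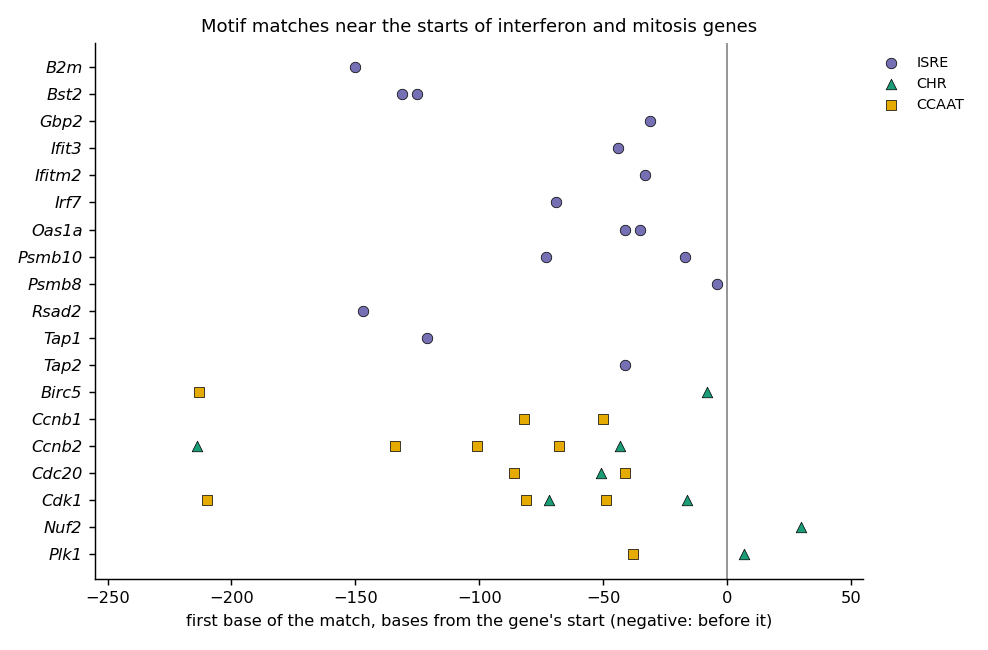
First base of each motif match, in bases from the gene's start, in the promoters of interferon genes (circles, ISRE) and mitosis genes (triangles, CHR; squares, CCAAT). All ISRE matches begin before the start, and in Ccnb2 the CCAAT matches at 68, 101 and 134 bases before the start lie between the CHR matches at 43 and 214 bases.

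Complement, chemokine and cytokine genes were higher in 20 of 23 and lower in 0, with a median of 4.87. The complement genes C3 (2.76 in stem cells, not well above background, and 825 in neurons, at least 6.15), C4a (21.99 and 3531, 7.5) and C1s (36.2 and 8538, 8.05) belong to different steps of the cascade. The chemokine Cxcl12, which guides progenitors and blood cells, gave 211 in stem cells and 56719.5 in neurons (8.24) at the brighter of its 2 probes and 10.51 at the other. Ccl2 gave 149 in stem cells and 14663 in neurons (6.79) and its genomic neighbour Ccl7 gave 13.5 in stem cells, not well above background, and 3268 in neurons (at least 8.09). Ackr3, a scavenging receptor for Cxcl12, did not differ by 2-fold (219 and 259, 0.41). Plasma protein genes outside the fixed lists, named after their values were seen, were Hp (40.5 and 8393, 7.87), Alb (3.41 and 1226, at least 6.72), Afp (3.41 and 983, at least 6.41) and Orm1 (3.14 and 415, at least 5.16). Among macrophage markers, Cd14 gave 3.37 in stem cells, not well above background, and 1236 in neurons (at least 6.74) and C1qa gave 3.55 in stem cells, not well above background, and 735 in neurons (at least 5.99), while Cd68 was at 0.75 and C1qc at 0.5.

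Growth factor genes were higher in 17 of 26 and lower in 1, with a median of 2.64. Vegfc, a lymphatic growth factor, gave 3.11 in stem cells, not well above background, and 4842 in neurons (at least 8.71), and Mdk, midkine, gave 265 in stem cells and 15634 in neurons (6.05). The neurotrophins Ntf3 (3.52 in stem cells, not well above background, and 638 in neurons, at least 5.78) and Bdnf (2.74 in stem cells, not well above background, and 187 in neurons, at least 4.01) were below background in stem cells. Igf1 gave 3099 in stem cells and 29751 in neurons (3.43) at its brightest probe, with 4 probes between 0.45 and 3.43, and Igf2 gave 11517 in stem cells and 115343 in neurons (3.49). The insulin genes that the series is named for were at 162 and 387 (1.43) for Ins1 and 23.3 and 165 (3.0) for Ins2, near-identical copies that a probe may not tell apart. Gdnf was bright and alike on both arrays (41436 and 40766, 0.15). Tgfa, a ligand of the EGF receptor, was the lower member, with 7884 in stem cells and 389 in neurons (-4.17).

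Developmental pathways held genes of both directions, to be read against 26.9% higher and 20.0% lower over all genes. In the BMP and TGF-beta pathway 9 of 21 genes were higher (42.9%) and 5 lower (23.8%). The ligand Bmp4 (439 and 95.4, -2.03) and the BMP targets Id1 (9199.9 and 2147, -1.93) and Id2 (2573 and 476, -2.26) were lower, and the TGF-beta-binding protein Ltbp1 (64.1 and 9189, 7.33) and the activin subunit Inhba (3.37 in stem cells, not well above background, and 1218 in neurons, at least 6.71) were higher. In the Notch pathway 4 of 13 were higher (30.8%) and 5 lower (38.5%). The ligands Dll1 (149 in stem cells and 7.39 in neurons, not well above background, -3.96 or lower) and Dll3 (563 and 80.5, -2.64) were lower, Jag1 (0.05) and Notch3 (-0.6) stayed inside the limits, and the targets Hes1 (2.12) and Hes5 (-2.53) went opposite ways. In the Wnt pathway 7 of 18 were higher (38.9%) and 3 lower (16.7%): the receptor Fzd9 (1609 and 111, -3.69) and the nuclear factor Lef1 (1166 and 181, -2.51) were lower, the ligand Wnt5a (2.81 in stem cells, not well above background, and 316 in neurons, at least 4.77) was higher and the target Axin2 was at -0.53.

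Retinoic acid genes were split by role. Of 16, 12 were higher and 2 lower, with a median of 2.93. The synthetic enzymes Aldh1a2 (4.28 in stem cells, not well above background, and 7962 in neurons, at least 9.42), Aldh1a1 (2.75 in stem cells, not well above background, and 721 in neurons, at least 5.96) and Aldh1a3 (81.4 and 461, 2.67) were all higher. The 2 lower genes both encode enzymes that degrade retinoic acid, Cyp26b1 (8617 and 155, -5.62) and Cyp26a1 (87.5 and 11.6, -2.75). The receptor Rxrg gave 41.2 in stem cells and 7734 in neurons (7.72) and the carrier Crabp2 gave 1288 in stem cells and 57503 in neurons (5.65), and Rara was at 0.68.

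Axon guidance genes were higher in 7 of 12 (58.3%) and lower in 3 (25%), with a median of 1.64 that was under 1 under 4 of the settings tried. Over all genes, 26.9% were higher and 20.0% lower. Slit3, a repellent, gave 51.5 in stem cells and 3529.8 in neurons (6.27), and Efnb1 gave 93.5 in stem cells and 774 in neurons (3.22). The netrin receptor Unc5c (1705 and 194, -2.96) and Ntn1 itself (32.9 in stem cells and 7.22 in neurons, not well above background, -1.78 or lower) were lower. Of 18 cadherins and junction proteins 7 were higher (38.9%) and 3 lower (16.7%). The classical cadherins Cdh2 (1319.9 and 1065, -0.14) and Cdh1 (at least 0.14) did not differ by 2-fold. Contractile genes were higher in 8 of 18 (44.4%) and lower in 1 (5.56%). The higher ones were led by Tagln2 (3.53 in stem cells, not well above background, and 10518 in neurons, at least 9.82), Tpm2 (132 and 42358, 8.5) and Tagln (2.96 in stem cells, not well above background, and 2004 in neurons, at least 7.43). Non-muscle myosin Myh10 was lower (19907 and 5501, -1.68).

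Inhibitors of cell cycle kinases and other genes of cell cycle arrest and stress were higher in 8 of 16 (50%) and lower in 5 (31.25%). Over all genes, 26.9% were higher and 20.0% lower. Cdkn1c gave 2408 in stem cells and 115634 in neurons (5.76), Cdkn1a, or p21, gave 729.8 in stem cells and 12167 in neurons (4.23), and the stress gene Gadd45a gave 612 in stem cells and 18610.2 in neurons (5.1). Cdkn1b, or p27, was lower (9465 and 3273, -1.36). Immediate early genes, switched on within minutes of a stimulus, were higher in 10 of 25 (40%) and lower in 4 (16%), against the same shares over all genes. Myc gave 23922 in stem cells and 1561 in neurons (-3.77), Nr4a1 gave 26430.4 in stem cells and 3643 in neurons (-2.69), Fosl1 gave 16.3 in stem cells and 649.7 in neurons (5.48), and Fos itself was at -0.69.

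Lipid transport genes were higher in 18 of 24 and lower in 3, with a median of 4.39; the list shares members with the fat cell list. The cholesterol exporters Abca1 (25.3 and 1943, 6.43) and Abcg1 (43.5 and 16694, 8.76) and their regulator Nr1h3 (203 and 8607, 5.58) were higher, while the uptake receptors Scarb1 (11018 and 3829, -1.35) and Vldlr (572 and 243, -1.06) were lower. Lysosomal genes were higher in 14 of 25 and lower in 0, with a median of 1.40 that is 0.36 on the spike-in scale. The cathepsins Ctsk (10.44), Ctsh (3.75 in stem cells, not well above background, and 10809 in neurons, at least 9.86) and Ctsc (3.66 in stem cells, not well above background, and 2350.0 in neurons, at least 7.66) led, and Asah1 (-0.19) and Neu1 (-0.13) did not differ by 2-fold. Antioxidant and metal-binding genes were higher in 17 of 26 and lower in 1, with a median of 1.61 that is 0.58 on the spike-in scale. Gsta1, a glutathione transferase with close copies that the probe may also bind, gave 81.6 in stem cells and 44633 in neurons (9.27), and Tf, which carries iron, gave 117 in stem cells and 12280.1 in neurons (6.88). Hmox1 gave 1349 in stem cells and 8509 in neurons (2.83), while Sod1 (0.03) and Gstp1 (0.01) were alike.

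Basic metabolism showed small median differences whose size depends on the scaling. The median was -0.05 for 22 glycolysis and hypoxia genes, -0.30 for 24 respiratory chain genes, -0.47 for 16 housekeeping genes and -0.68 for 35 ribosomal protein genes. Scaling to the array median lowers the differences measured on both arrays by 0.54. On the spike-in scale these 4 medians were -1.09, -1.34, -1.5 and -1.71. Of the ribosomal protein genes 7 of 35 were lower by 2-fold, the same 20.0% as over all genes, and 0 were higher, from -1.34 for Rpl27 to -0.15 for Rps20. Of the respiratory genes 1 was lower and 1 higher. The muscle-type pyruvate kinase gene Pkm (52102 and 14389.9, -1.69) and Pfkm (30225 and 6221, -2.11) were lower, and the lactate exporter Slc16a3 (23.5 and 729, 5.13) and the vasodilator peptide Adm (147 and 9372, 6.17) were higher. Actb (129341 and 123250.0, 0.1) and Gapdh (106469 and 60342, -0.65) did not differ by 2-fold, and B2m, often used as a reference gene, was at 2.13.

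Probes without a gene symbol made up most of the array, and their shares of higher and lower probes differed from those of named probes. Of the 8688 named probes compared, 26.3% were higher and 20.6% lower, while the shares were 18.2% and 23.6% for 6848 Ensembl transcripts, 19.6% and 24.0% for 3867 RefSeq model transcripts, and 18.6% and 15.7% for 7915 other entries, mostly single cDNAs or ESTs. Among the 100 measured probes with the largest higher differences 41 had no symbol, and among the 100 with the largest lower differences 65, against 71.3% of all measured probes. The probe lowest of all lacked a symbol: its signal was 9872 in stem cells and 15.3 in neurons, a difference of -9.16. The next was an Ensembl transcript with 8378 and 22.9 (-8.35). On the higher side, a RefSeq model transcript gave 91.3 and 141769 (10.77), and an Ensembl transcript gave 17.3 and 43700.1 (11.47). For 1233 genes with several measured probes, the probes differed with a median SD of 0.14, 14 genes spanned 4-fold or more, and 0 had probes past 2-fold in opposite directions.

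**Figure D5:**
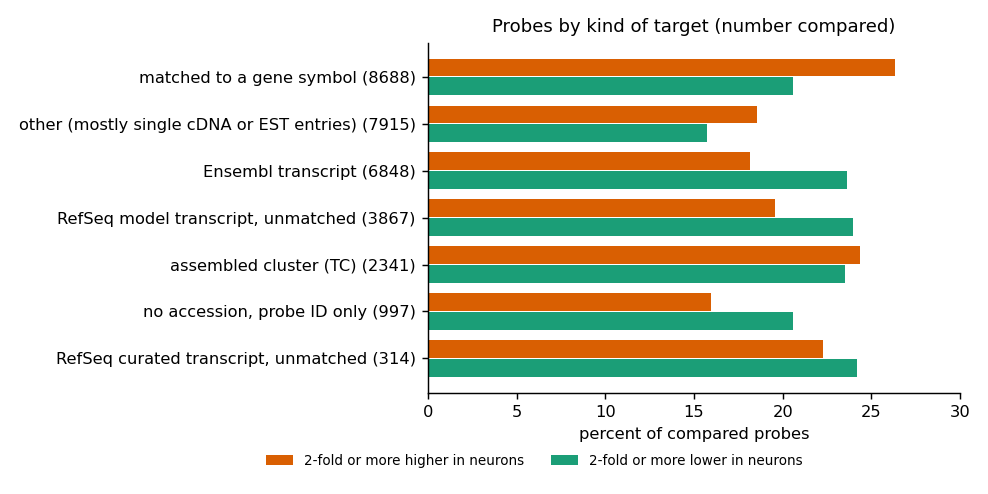
Percent of compared probes that were 2-fold or more higher or lower in neurons, by the kind of sequence entry the probe was made for, with the number compared in brackets. Probes matched to a gene symbol have the highest share of higher probes, at 26.3%, and other entries, mostly single cDNAs or ESTs, have the lowest share of lower probes, at 15.7%.

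Olfactory receptor genes, which sensory neurons of the nose express, form a large family. Of 1082 such genes 784 were not well above background on either bulb array. Of the 298 compared, 33 were higher (11.1%) and 6 lower, against 26.9% higher and 20.0% lower over all genes. Bounds made up 134 of the 298, and differences ran from -2.79 to 2.92. The brightest difference among those named was Or4f7c, with 1549 in stem cells and 4627 in neurons (1.75); it was picked after its values were seen. Members of this family resemble each other, so a probe may bind the RNA of another.

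Genes next to each other on a chromosome, by the order of protein-coding genes in GRCr8, were compared in pairs. In 2533 neighbouring pairs, 254 pairs were both higher, 129 were both lower and 235 went opposite ways by 2-fold. Of all genes in pairs 27.4% were higher, and of the neighbours of a higher gene 36.6% were. With pairs left out whose symbols begin with the same 3 letters, mostly gene families, these shares were 25.7% and 31.6%. For lower genes they were 20.9% overall and 25.9% next to a lower gene. The pairs included Dcn and Lum, Prelp (5.27) and Fmod, Afp and Alb, and Igfbp2 (6.89) and Igfbp5 (at least 6.2) on the higher side. Leaving out pairs by symbol keeps related genes with unlike symbols, such as the proteoglycans Dcn and Lum.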

How the data were processed

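Per the labels, total RNA was labelled with Cy3 and hybridised to Agilent 1-colour arrays. The values deposited are Cy3 intensity per spot, background-subtracted with Agilent Feature Extraction 10.5.1.1, per the submitters' processing notes and the file headers. The authors' table for the series holds the same intensity values (largest difference 0). Of 41012 non-control probes, 254 with an outlier spot were left out. Here log2 signals were taken from the deposited intensities, spots of a probe averaged and each array's 75th percentile subtracted. Accessions were matched to RefSeq genes of GRCr8, for names and neighbours; the headers name rn4 for the probe design. This gave 10783 probes with 1 symbol, 0 with several and 29975 with none. A gene with several probes (1597) took the brightest. A spot counted as above background by the scanner's flag, and a probe if most of its spots were; bounds below 0 were set to 0.

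The rule for named genes took the 15 measured and 10 bounded genes with the largest differences per direction, 6 unnamed probes per direction, and of each list its first 3 members, its 4 largest per direction and its 2 smallest. Further names were chosen after their values were seen, among them other list members, the 2 added lists and olfactory receptors. The comparison, the members and the 44 fixed lists were chosen with earlier results of these data known. Alternatives were normexp with an offset of 50 (limma 3.58.1, R 4.3.3), quantile normalization, median and spike-in scaling, only probes above background on both arrays, no filter, the authors' table, the mean over a gene's probes, and only genes matched by accession. The planned normexp correction used median in place of mean spot signals. The difference calculation was tested on simulated data. Some genes of the lists are not reported here by name; counts and medians include them. Other steps ran in Python 3.11.15 with pandas 2.3.3 and numpy 2.4.6.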

Additional observations from a re-analysis of the deposited data

Results flagged for a closer look

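Genes that were past 2-fold in opposite directions in olfactory bulb and hippocampal cells are given here, with the bulb difference before the hippocampal one. The difference between the sources was not tested, with 1 array a group, and both comparisons lie across the same slides. Higher in bulb neurons and lower in hippocampal neurons were Ccl5, a chemokine, (at least 3.87 and -1.22), Atf3, a stress-induced transcription factor, (3.15 and -2.53) and Csrp3 (at least 2.2 and -1.55). In the same direction were Or2d2 (1.51 and -1.81), Or51q1d (at least 1.43 and -1.13 or lower) and Ehhadh, a peroxisomal enzyme, (1.41 and -1.37). Next by bulb difference were Tent5c (1.38 and -1.03 or lower), Fabp1, the liver fatty acid carrier, (at least 1.37 and -1.69 or lower) and Or2d2b (1.31 and -1.98 or lower). Smaller bulb differences were those of Krt90 (1.25 and -1.31 or lower), Ndrg1, a stress and differentiation gene, (1.23 and -1.84) and Comp, a cartilage matrix protein, (1.23 and -1.02). Close to the 2-fold limit were Cdh19, a glial cadherin, (1.14 and -1.25 or lower), Or8k39 (at least 1.14 and -1.52 or lower) and Tmod1, an actin-capping protein, (1.04 and -1.73). Lower in bulb neurons and higher in hippocampal neurons were Cyp24a1, which degrades vitamin D, (-4.01 and 2.34), Mapk13, a stress kinase, (-3.97 or lower and at least 2.15) and Ntrk3, a neurotrophin receptor, (-2.43 and 1.05). They were followed by Spag1 (-2.25 and at least 1.07), Stpg1 (-1.85 and at least 1.99) and Cnmd, a cartilage glycoprotein, (-1.81 and 2.71). The others were Ocln, a tight junction protein, (-1.78 and 2.31), Zfp292 (-1.3 and at least 1.46) and Matr3 (-1.18 and 1.13). Or2d2, Or2d2b, Or51q1d and Or8k39 belong to the olfactory receptor family, whose probes may bind related RNA.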

How the results depend on the processing

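Of 490 named genes, 358 were past 2-fold; 63 of these fell within 2-fold under at least 1 alternative, 82 others passed it, and Numbl (1.02) was at -0.0124 under spike-in scaling. Of 46 list medians, 26 were past 2-fold, 8 lost and 13 gained that under some alternative, and 0 turned round past 2-fold. Spike-in scaling gave 3344 higher and 15678 lower probes with a median of -1.02, and 1125 higher and 3320 lower genes, so that 25.3% of called genes were higher in place of 57.4%. Under spike-in scaling 31 list medians kept their side of the 2-fold limit, and 10 that lay within it passed it. Those that newly passed it were olfactory bulb interneuron lineage -1.40, mature neuron -1.31, synaptic -1.44, RNA-binding -1.36, Notch -1.26, glycolysis -1.09, respiratory chain -1.34, ribosomal -1.71, stress -1.94 and housekeeping -1.5. Those no longer past it were axon guidance 0.60, ensheathing and Schwann cell 0.54, lysosomal 0.36, interferon 0.88 and antioxidant 0.58. Median scaling gave 11101 lower probes, 2363 lower genes and 36.97% higher of those called, with medians of 0.86 (lysosomal), -1.22 (ribosomal), -1.45 (stress) and -1.01 (housekeeping). Normexp gave 4113 higher probes and medians of 0.94 (axon guidance), -0.87 (chromatin) and -0.65 (homeobox). Only probes above background on both arrays gave 3842 higher probes, 1151 higher genes, 46.9% higher of those called and -0.996 (homeobox), by construction without bounds. Quantile normalization gave 0.65 (axon guidance), -0.69 (chromatin) and 1.03 (contractile). No filter gave 0.77 (glutamatergic lineage), 1.29 (glutamate and GABA receptors), 0.59 (axon guidance) and -0.54 (homeobox), and the mean over probes 1.32 (oligodendrocyte) and 1.30 (contractile). Where no construction is named, the cause was not tested. The authors' table and genes matched by accession moved no value, being the same values and names. No paired analysis was possible because each group has 1 array. Signals near background limit the dim receptor, channel and transmitter genes, and the size of every bound.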
